A study of Mus musculus with 31 samples.

Results

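IL-1 and TNF receptors and adaptors were followed as 10 genes in RNA-seq libraries of sorted mouse astrocytes. The genes were taken by symbol: Il1rn, Il1r1, Il1rap, Tnfrsf1a, Tnfrsf1b, Irak1, Irak4, Traf6, Tradd and Map3k7, which are 10 of the 55401 genes listed in the deposited files. They were chosen with earlier results of these data known. All 10 passed the filter on low counts.

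Astrocytes, glial cells of the brain, change their shape and gene expression when tissue is inflamed. The 12 libraries fall into 4 groups of 3, all from female C57Bl/6 mice aged 10 weeks, and all 12 titles carry the term SPF, which the labels do not spell out. Mice received IL-1β at 100 ng/mL together with TNF-α at 50 ng/mL, diluted in PBS, or PBS alone, into the lateral ventricles, the fluid spaces of the brain. The groups labelled 1X PBS and 1X cytokine were injected once, on day 7. Those labelled 2X PBS and 2X cytokine had a first injection and a further one on day 7. Astrocytes were sorted 18 to 24 hours after the last injection. The short description of the samples names TNF-α only, and no source used here gives the markers of the sort. The labels do not say whether a library is 1 animal, so each p-value rests on how libraries differ from each other, which may be technical only.

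IL-1β binds the receptor chain encoded by Il1r1, and the accessory chain encoded by Il1rap then joins and makes the complex able to signal, while the antagonist encoded by Il1rn occupies the same receptor without recruiting the accessory chain. The IL-1 receptor complex passes its signal through the kinases IRAK4 and IRAK1 to the ubiquitin ligase TRAF6. TNF binds TNFR1 (Tnfrsf1a), which recruits the adaptor TRADD through its death domain, or TNFR2 (Tnfrsf1b), which lacks a death domain. Both routes meet at the kinase TAK1 (Map3k7), which activates the IKK complex and MAP kinases, and thereby NF-kB and AP-1. In the brain these cytokines are among the classical inducers of reactive astrocytes.

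The upstream windows of 5 genes show what lies before the start sites of 4 genes whose libraries parted between the 2X groups, and of Map3k7, which varied little. RefSeq promoter windows on GRCm38.p6, 250 bases before to 50 bases after a start site, were found for 9 of the 10 genes, and the printed part is upstream of the start only, 5′ to 3′ on the gene's strand. Capitals mark a match to a kappaB element, to the AP-1 motif TGANTCA or to the STAT motif TTCNNNGAA, searched on both strands. Il1rn has several start sites, of which the upstream one precedes the intracellular form of the antagonist. The printed downstream one lies at the start of transcript Il1rn-202, of 162 residues. Il1rn-201, the secreted form of 178 residues, starts shortly after it, at chr2:24345310. A further Il1rn window, before a start at chr2:24345371, is not printed and holds none of these motifs.
Il1rn, upstream start, chr2:24336610-24336859, plus strand: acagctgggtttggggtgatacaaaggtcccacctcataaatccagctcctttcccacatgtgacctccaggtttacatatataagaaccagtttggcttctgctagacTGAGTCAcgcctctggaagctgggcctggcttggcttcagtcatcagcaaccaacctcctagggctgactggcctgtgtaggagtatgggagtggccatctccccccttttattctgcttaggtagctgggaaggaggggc
Il1rn, downstream start, chr2:24345041-24345290, plus strand: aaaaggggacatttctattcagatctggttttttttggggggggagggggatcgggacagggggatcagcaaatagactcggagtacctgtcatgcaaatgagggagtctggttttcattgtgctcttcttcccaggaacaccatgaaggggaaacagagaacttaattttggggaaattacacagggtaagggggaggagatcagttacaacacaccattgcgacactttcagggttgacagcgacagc
Il1r1, chr1:40266336-40266585, plus strand: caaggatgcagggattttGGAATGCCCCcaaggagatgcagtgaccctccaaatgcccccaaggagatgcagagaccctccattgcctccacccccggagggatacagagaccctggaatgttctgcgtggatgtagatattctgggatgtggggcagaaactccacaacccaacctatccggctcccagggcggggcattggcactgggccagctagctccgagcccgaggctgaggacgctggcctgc
Tnfrsf1a, chr6:125349473-125349722, plus strand, without the 36 bases at its 5′ end that lie in annotated exons: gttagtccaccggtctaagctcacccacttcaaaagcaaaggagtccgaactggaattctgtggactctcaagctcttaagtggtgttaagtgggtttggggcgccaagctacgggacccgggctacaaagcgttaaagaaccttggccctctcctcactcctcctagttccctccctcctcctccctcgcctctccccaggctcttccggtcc
Tnfrsf1b, chr4:145246871-145247120, minus strand: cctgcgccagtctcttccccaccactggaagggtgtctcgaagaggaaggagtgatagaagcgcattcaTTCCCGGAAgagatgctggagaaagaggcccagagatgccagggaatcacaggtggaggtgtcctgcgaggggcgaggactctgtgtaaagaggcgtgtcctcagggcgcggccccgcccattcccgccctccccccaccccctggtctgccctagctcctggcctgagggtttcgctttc
Map3k7, chr4:31963857-31964106, plus strand: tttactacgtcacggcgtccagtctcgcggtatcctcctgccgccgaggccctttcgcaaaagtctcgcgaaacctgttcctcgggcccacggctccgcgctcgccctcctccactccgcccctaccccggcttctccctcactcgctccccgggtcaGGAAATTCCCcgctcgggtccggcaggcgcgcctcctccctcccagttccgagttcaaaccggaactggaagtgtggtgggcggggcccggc

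The upstream Il1rn window holds an AP-1 match, TGAGTCA, at -141 from the start, while the downstream window holds none of the 3 motifs. A kappaB match lies at -232 from the start of Il1r1, at -92 from that of Map3k7 and, in a window not printed, at -21 from that of Irak1. Tnfrsf1b has a STAT match at -181, and Tnfrsf1a one at -244, in the part left out. The other window of Il1r1, before the start of another transcript, holds none. The windows of Il1rap, Irak4 and Traf6 hold none of these letters. Over all 32851 windows, 8.46% hold a kappaB match, 7.81% an AP-1 match and 8.3% a STAT match, and a match is a description of the letters, not of binding.

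Library totals ran from 1878418 to 5521679 estimated counts, and a count of 3 corresponds to 0.543 to 1.60 CPM (CPM are counts scaled to the TMM-adjusted library total). None of 12 astrocyte markers was at 0 throughout, and they summed to 7466 to 28190 CPM. Markers of other cells were counted too. Choroid plexus genes summed to 3910 to 28890 CPM and mural cell and fibroblast genes to 3105 to 7960. Oligodendrocyte genes summed to 2736 to 6435 and erythrocyte genes to 489 to 64770, while Slc17a7, a marker of excitatory neurons, was at 0 in all 12. Within the 1X groups 2 libraries stood apart from the others of their label. Monocyte markers summed to 156 CPM in 1X PBS replicate 1 against 2039 and 1891 in replicates 2 and 3, and to 651 in 1X cytokine replicate 1 against 139 and 151 in replicates 2 and 3. Neutrophil markers behaved alike, with 28.9 against 1437 and 1674, and 688 against 22.7 and 24.7. Whether the labels of these libraries were exchanged was not tested, and every value of a 1X group has to be read with that in mind. The labels of the other libraries, those of the 2X groups included, were not checked either. Lcn2, a gene of reactive astrocytes and neutrophils, and Gfap were lower in every 2X cytokine library than in any 2X PBS library. Every direction given below thus holds for the labels as given. Results of the tests that use the 1X groups are given with both replicates 1 and, for the values named, without them. Groups are named by the labels of their libraries. In bulk libraries, fewer cells of a type and less RNA per cell cannot be told apart.

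After repeated injection, the antagonist, both TNF receptors, Il1r1 and Irak4 lay lower in every 2X cytokine library than in any 2X PBS library, by 1.81-fold for Irak4 to 9.78-fold for Il1rn in the fit of the 2X libraries alone. Irak1 was lower too, by 1.2-fold, and Traf6 higher, by 1.18-fold, while the libraries of Il1rap, Tradd and Map3k7 overlapped. In all, 6 of 10 genes were lower without overlap, where 14.1% of all tested genes were, and Traf6 was higher without overlap, as were 11.2% of all genes. None of the 10 passed an adjusted p of 0.05 (Benjamini-Hochberg over 14490 genes) by edgeR's quasi-likelihood test with all 12 libraries in the fit, which called 5 genes in all (0.0345%, all lower). In that fit 5 of the 10 had an unadjusted p under 0.05, as had 1402 of all genes, and DESeq2 called 1 of the 10, Tnfrsf1a (adjusted p = 2.04e-05), where it called 0.787% of all genes. The common biological variation was 0.237 over all 12 libraries, 0.314 in the 1X libraries alone and 0.118 in the 2X libraries alone. Fitted on the 6 libraries of the 2X groups alone, edgeR called 5 of 10, all lower, against 7.22% of all genes; with all groups but without both replicates 1 of the 1X groups it called the same 5, against 7.14%. Each of the 6 libraries of the 2X groups was then left out in turn from the fit of those 6, and 623 to 910 genes were called. Il1rn, Tnfrsf1a and Tnfrsf1b were called each time. Il1r1 was not called without 2X PBS replicate 2 or 2X cytokine replicate 1. Irak4 was not called without 2X PBS replicate 2 or 2X cytokine replicate 2. The median log2 fold change was -0.56 over the 10 genes and -0.00 over all genes.

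**Figure D1:**
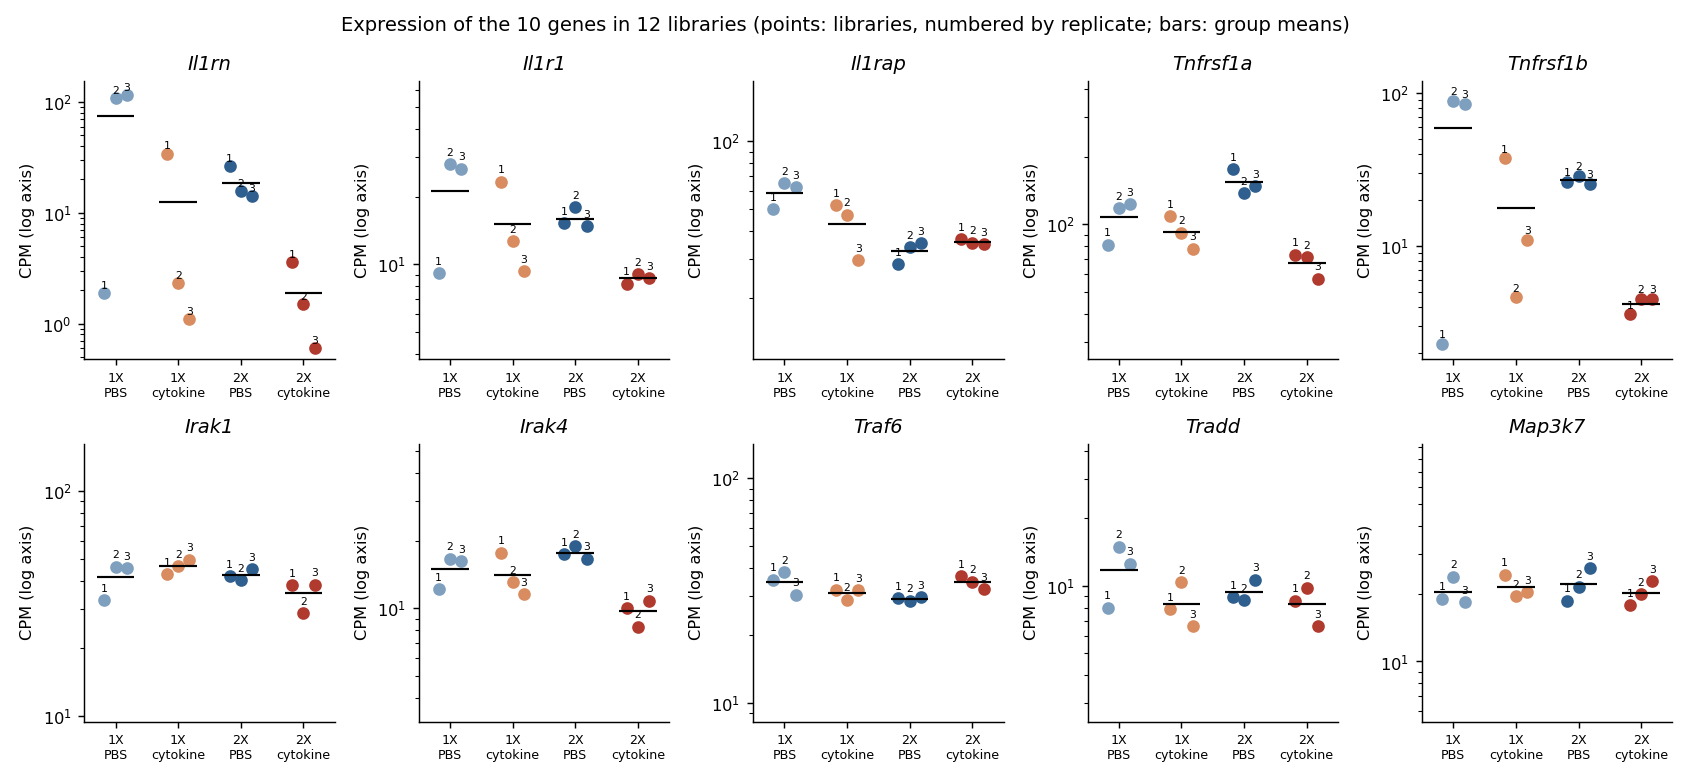
CPM of each of the 10 genes in each library (points, numbered by replicate, log axis) by group, with bars at the group means. In Il1rn and Tnfrsf1b, 1X PBS replicate 1 lies far below replicates 2 and 3, and 1X cytokine replicate 1 far above the others of its label, while the 2X groups lie apart.

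Il1rn (ENSMUSG00000026981.15; GRCm38 chr2:24336853-24351494, plus strand) encodes the IL-1 receptor antagonist. It had 26.2, 15.7 and 14.2 CPM in the 2X PBS libraries against 3.57, 1.51 and 0.6 in those of 2X cytokine, the last resting on 10, 4 and 2 counts. Every 2X cytokine library was thus below every 2X PBS library. The log2 fold change was -3.29 ± 1.47 (SE) with all 12 libraries (edgeR, adjusted p = 0.503) and -3.29 ± 0.44 with the 2X libraries alone (edgeR, adjusted p = 0.00081). In 1X PBS it had 1.9, 107.5 and 114.3 CPM and in 1X cytokine 34.2, 2.3 and 1.1. Replicate 1 of each 1X label thus stood with the other label, and over the 12 libraries the highest level was 190.6 times the lowest.

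The level of Il1rn moved with markers of other cells. In 2X PBS monocyte markers summed to 554 to 565 CPM and neutrophil markers to 345 to 486, and in 2X cytokine to 104 to 214 and to 14.1 to 143. Lyz2, a lysozyme of myeloid cells, had 306 ± 7.87 CPM in the 2X PBS libraries against 28.7 ± 23.7 in those of 2X cytokine (SD, n = 3). In the fit of the 2X libraries alone, 6 of 9 tested monocyte and 6 of 9 tested neutrophil markers were called lower, as were 4 of 10 mural cell and fibroblast markers (Rgs5, Kcnj8, Dcn and Lum) and 1 of 10 microglia markers, Aif1. An unadjusted p under 0.05 was reached by 8 monocyte, 6 neutrophil, 5 mural and 7 microglia markers. It was also reached by 7 of 12 astrocyte, 7 of 8 oligodendrocyte, 3 of 6 oligodendrocyte precursor, 2 of 8 ependymal and 2 of 7 neuron markers. Of all 14490 genes 2926 reached it. Of the microglia markers 8 of 10 had a lower mean, with a median log2 fold change of -0.48. By edgeR 0 of 10 endothelial markers were called (2 with an unadjusted p under 0.05), 6 of 8 oligodendrocyte markers were called higher, and of 12 astrocyte markers 3 were called higher and 1, Gfap, lower. Called higher were also 2 of 6 oligodendrocyte precursor and 2 of 8 ependymal markers. Choroid plexus markers were lower in mean in 8 of 8 and erythrocyte markers higher in 5 of 5, each with 5 at an unadjusted p under 0.05 and 0 called. Of 7 tested neuron markers 0 were called. The share called over all genes was 7.22%. Astrocyte markers summed to 19100 to 21500 CPM in the 2X PBS libraries against 21350 to 25340 in those of 2X cytokine. The part of these cells in the levels of Il1rn, Tnfrsf1b and Il1r1 was not tested. Most of the estimated level of Il1rn, 78.4% of its TPM over the 12 libraries, came from transcript Il1rn-201, which encodes the secreted form of 178 residues, 9.38% from Il1rn-202, which encodes 162 residues, and 7.74% from Il1rn-204, the intracellular form of 159 residues. Il1rn-202 led in 1X cytokine replicate 2 (59.7%) and 2X cytokine replicate 3 (56.5%), where the gene had 6 and 2 counts. TPM are transcripts scaled by length to a fixed sum per library, and this division between transcripts is kallisto's estimate.

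**Figure D2:**
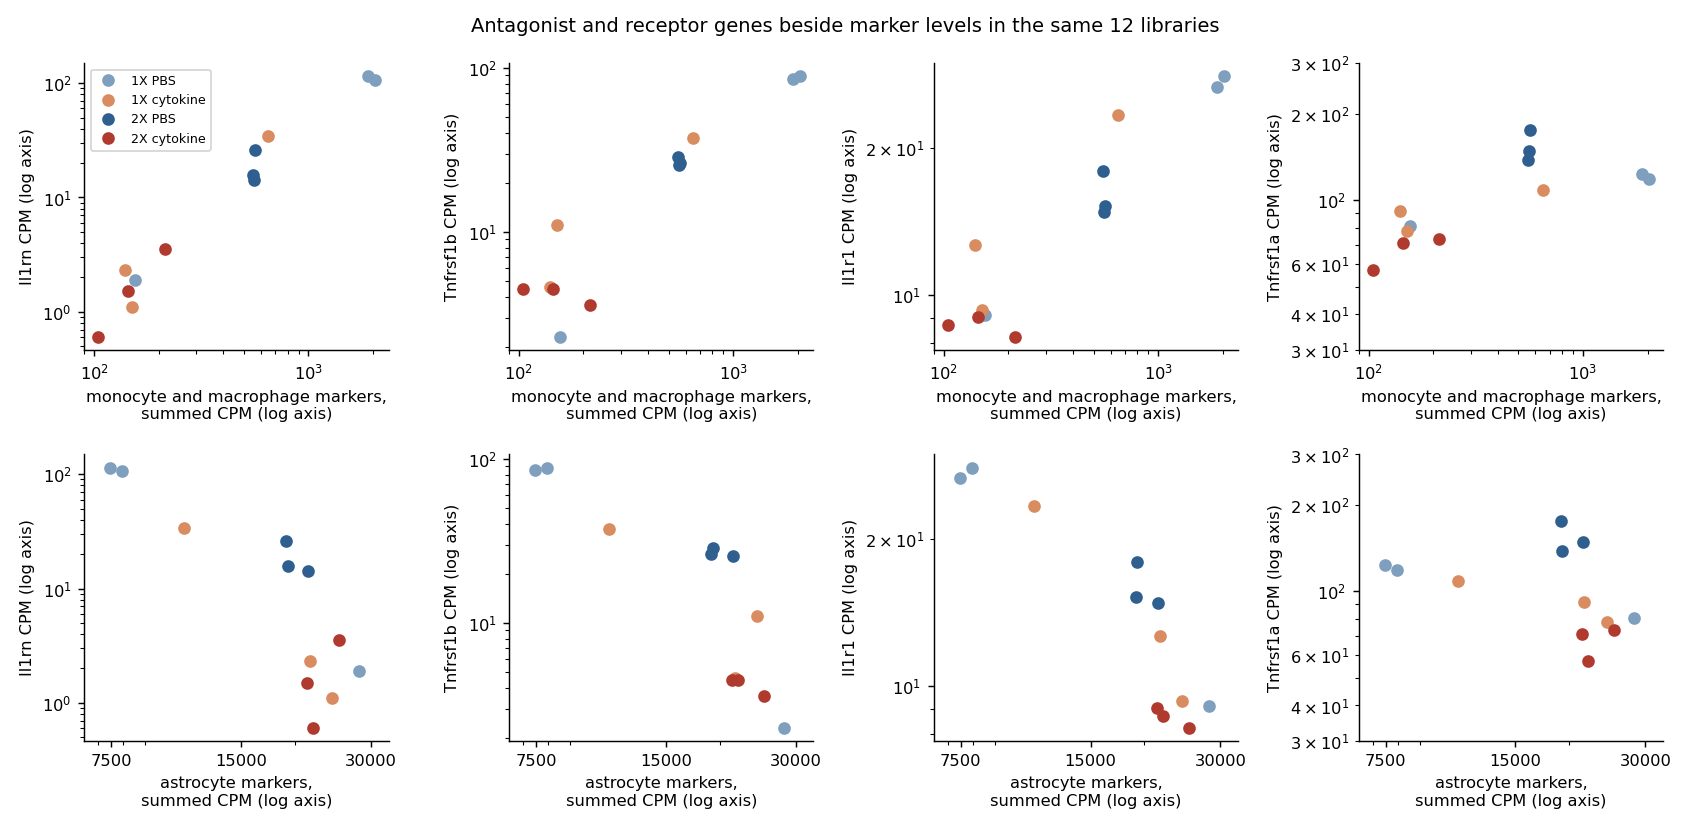
CPM of Il1rn, Tnfrsf1b, Il1r1 and Tnfrsf1a (rows share a marker list, log axes) against summed CPM of monocyte and macrophage markers (top) and of astrocyte markers (bottom) in the 12 libraries, coloured by label. Il1rn and Tnfrsf1b are high where monocyte markers are high, and Tnfrsf1a is highest in the 2X PBS libraries, whose monocyte markers are intermediate.

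Il1r1 (ENSMUSG00000026072.12; chr1:40225080-40317257, plus strand) encodes the chain that binds IL-1. It had 15.2, 18.0 and 14.8 CPM in the 2X PBS libraries against 8.21, 9.04 and 8.70 in those of 2X cytokine. The groups did not overlap. The log2 fold change was -0.89 ± 0.41 with all 12 libraries (edgeR, adjusted p = 0.516) and -0.90 ± 0.20 with the 2X libraries alone (edgeR, adjusted p = 0.0173). Without 2X PBS replicate 2 it was -0.78 and the adjusted p 0.108. In the 1X groups its levels were 9.13, 27.98 and 26.7 CPM in PBS and 23.3, 12.7 and 9.34 in cytokine, the same arrangement as for Il1rn. Transcript Il1r1-202, which encodes 573 residues and starts at the printed window, held 73.5% of its TPM.

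Il1rap (ENSMUSG00000022514.14; chr16:26581704-26730117, plus strand) encodes the accessory chain shared by IL-1 and related receptors. It had 28.4, 33.8 and 35.2 CPM in the 2X PBS libraries against 36.8, 35.4 and 34.8 in those of 2X cytokine, and the ranges overlapped (log2 fold change 0.13 ± 0.19; edgeR, adjusted p = 0.903). Its levels in 1X PBS, 49.8, 65.1 and 62.6 CPM, lay above all 6 libraries of the 2X groups, and those in 1X cytokine were 51.9, 47.2 and 29.7. Transcript Il1rap-201, the signalling form of 570 residues, held 78.9% of the TPM of the gene. Il1rap-202, the longer form of 685 residues known from neurons, held 0.371%, and Il1rap-206, which encodes 360 residues, held 11.7%.

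Tnfrsf1a (ENSMUSG00000030341.17; chr6:125349362-125362484, plus strand) encodes TNFR1, the receptor with a death domain. It had 177, 138 and 148 CPM in the 2X PBS libraries against 73.2, 71.2 and 57.3 in those of 2X cytokine. The groups did not overlap. The log2 fold change was -1.20 ± 0.19 with all 12 libraries (edgeR, adjusted p = 0.0542), and -1.19 ± 0.12 with the 2X libraries alone (edgeR, adjusted p = 0.000113). Leaving out 1X PBS replicate 1 or 1X cytokine replicate 1 from the fit of all groups brought Tnfrsf1a past the threshold. These fits called 141 and 19 of all 14490 genes. In 1X PBS it had 81.0, 118 and 123.2 CPM and in 1X cytokine 109, 91.8 and 78.0. The 2X PBS libraries were above all others and the 2X cytokine libraries below all others, and the ranges of both 1X groups overlapped. The pattern across 12 libraries most like its own was that of Gfap, the intermediate filament gene of astrocytes (Pearson r = 0.963 of log2(CPM + 0.5), over 11418 genes compared), followed by Pros1 (0.962) and Shisa5 (0.957). Gfap had 1141, 1043 and 1095 CPM in the 2X PBS libraries against 150, 119 and 113 in those of 2X cytokine.

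Tnfrsf1b (ENSMUSG00000028599.10; chr4:145213463-145246870, minus strand) encodes TNFR2, which in the brain is best known from microglia and is also carried by other immune cells. It had 26.2, 28.7 and 25.5 CPM in the 2X PBS libraries against 3.57, 4.52 and 4.50 in those of 2X cytokine. The fall was 6.36-fold with the 2X libraries alone (log2 fold change -2.67 ± 0.20; edgeR, adjusted p = 9.55e-06) and the same size with all 12 libraries (-2.67 ± 1.02; edgeR, adjusted p = 0.458). In 1X PBS it had 2.28, 88.7 and 85.4 CPM and in 1X cytokine 37.4, 4.61 and 10.99. Its level followed those of the myeloid gene Lst1 (r = 0.990), of Siglecf (0.980) and of Dok3 (0.979). Microglia markers summed to 589 to 824 CPM in the 2X PBS libraries against 361 to 684 in those of 2X cytokine, ranges that overlap.

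Levels between genes were compared per length. Tnfrsf1a had the highest TPM of the 10 genes in 10 of 12 libraries, and Il1rn in the other 2, replicates 2 and 3 of 1X PBS. TNFR1 transcripts exceeded TNFR2 transcripts in every library. The ratio of Tnfrsf1a to Tnfrsf1b TPM was 12.9, 8.97 and 10.9 in 2X PBS and 39.3, 31.4 and 24.4 in 2X cytokine, without overlap, and it ran from 2.61 to 70.4 in 1X PBS. The antagonist exceeded its receptor Il1r1 by 2.57 to 2.83 times in 2X PBS, whereas the ratio was 1.08, 0.411 and 0.175 in 2X cytokine. The Il1rn levels in 2X cytokine rest on 10, 4 and 2 counts. Il1r1-203, a processed transcript of 473 bases, was given 51.3% of Il1r1 TPM in 2X PBS replicate 1 and 50.9% in 2X cytokine replicate 3. In the other 2X libraries it was at 0. The ratios, and how narrow their range is in 2X PBS, thus depend on kallisto's split of Il1r1. No test was made of these ratios.

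**Figure D3:**
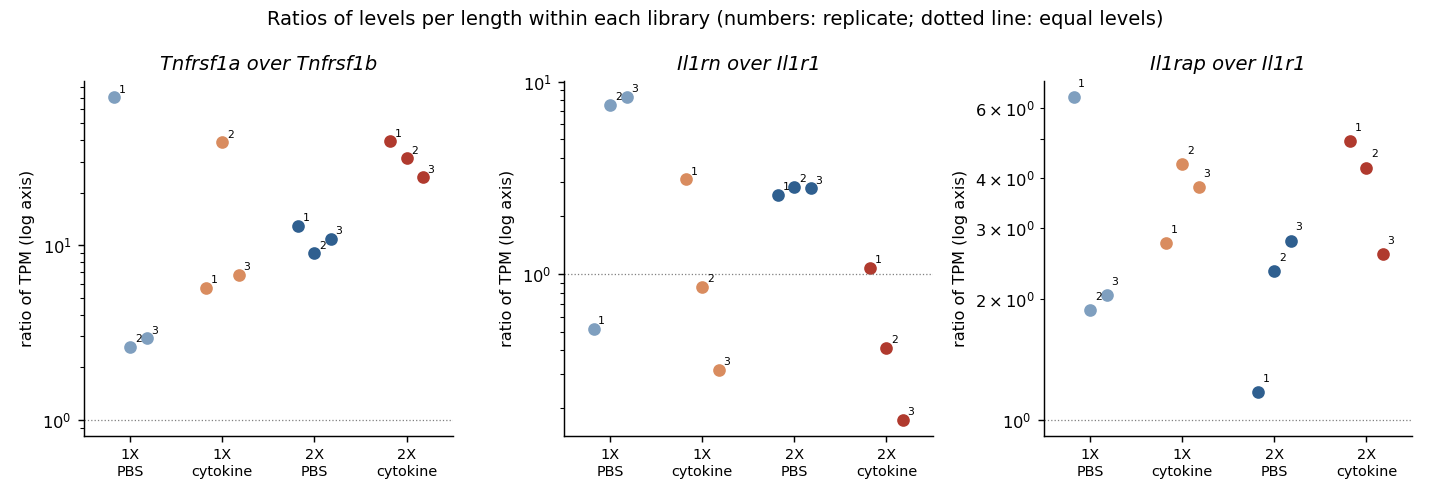
Ratios of TPM within each library (points numbered by replicate, log axis, dotted line at equal levels) by group. The Tnfrsf1a to Tnfrsf1b ratio is 8.97 to 12.9 in 2X PBS and 24.4 to 39.3 in 2X cytokine, and the Il1rn to Il1r1 ratio is 2.57 to 2.83 and 0.175 to 1.08.

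Of the genes that act below the IL-1 receptor, Irak4 (ENSMUSG00000059883.16; chr15:94543643-94581815, plus strand), the first kinase of the complex, had 17.4, 18.8 and 16.6 CPM in the 2X PBS libraries against 10.0, 8.29 and 10.8 in those of 2X cytokine. These ranges did not overlap. The log2 fold change was -0.86 ± 0.21 with all 12 libraries (edgeR, adjusted p = 0.267) and -0.86 ± 0.19 with the 2X libraries alone (edgeR, adjusted p = 0.0179). Without 2X PBS replicate 2 it was -0.78 and the adjusted p 0.101. Irak4 shares 395 exonic bases with Twf1 on the opposite strand, and no source used here says whether counting used strand, so reads of these bases cannot be told apart. Its pattern was most like those of Nme2 (r = 0.959), Steap4 (0.942) and Gfap (0.942).

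Irak1 (ENSMUSG00000031392.18; chrX:74013914-74023918, minus strand), the kinase that IRAK4 phosphorylates, had 41.9, 40.1 and 45.01 CPM in the 2X PBS libraries against 38.2, 28.6 and 38.4 in those of 2X cytokine. The groups were apart by a small margin (log2 fold change -0.27 ± 0.16; edgeR, adjusted p = 0.659, and 0.324 with the 2X libraries alone). Transcripts annotated with a retained intron held 39.7% to 43.5% of its TPM in 2X PBS and 39.9% to 55.9% in 2X cytokine, 46.8% to 59.1% in 1X PBS and 33.5% to 43.3% in 1X cytokine. The 1X PBS libraries thus lay above those of 1X cytokine and of 2X PBS, and no test of these shares was made. Traf6 (ENSMUSG00000027164.8; chr2:101678429-101701669, plus strand), the ubiquitin ligase, was the steadiest of the 10, with a highest level 1.34 times the lowest. It had 29.2, 28.5 and 29.6 CPM in the 2X PBS libraries against 36.8, 34.7 and 32.1 in those of 2X cytokine, higher in each (log2 fold change 0.25 ± 0.13; edgeR, adjusted p = 0.589, and 0.317 with the 2X libraries alone). On log2(TPM + 1) the difference of Traf6 between 2X PBS and 1X PBS, -0.25 on counts, was 0.03.

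Tradd (ENSMUSG00000031887.13; chr8:105258286-105264609, minus strand), the adaptor of TNFR1, had 8.89, 8.63 and 10.7 CPM in the 2X PBS libraries against 8.57, 9.80 and 6.6 in those of 2X cytokine. The ranges overlapped (log2 fold change -0.18 ± 0.28; edgeR, adjusted p = 0.907), and on log2(TPM + 1) the sign turned, at 0.26. Map3k7 (ENSMUSG00000028284.13; chr4:31964097-32023467, plus strand), the TAK1 kinase at which both routes meet, had 18.6, 21.5 and 26.1 CPM in the 2X PBS libraries against 17.9, 20.0 and 22.8 in those of 2X cytokine (log2 fold change -0.13 ± 0.18; edgeR, adjusted p = 0.895). Without 2X PBS replicate 3 this difference was 0.02. Across all 12 libraries Map3k7 stayed within 17.9 to 26.1 CPM. Its promoter window holds a kappaB match, as do 8.46% of all windows, and a link between match and level was not tested.

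**Figure D4:**
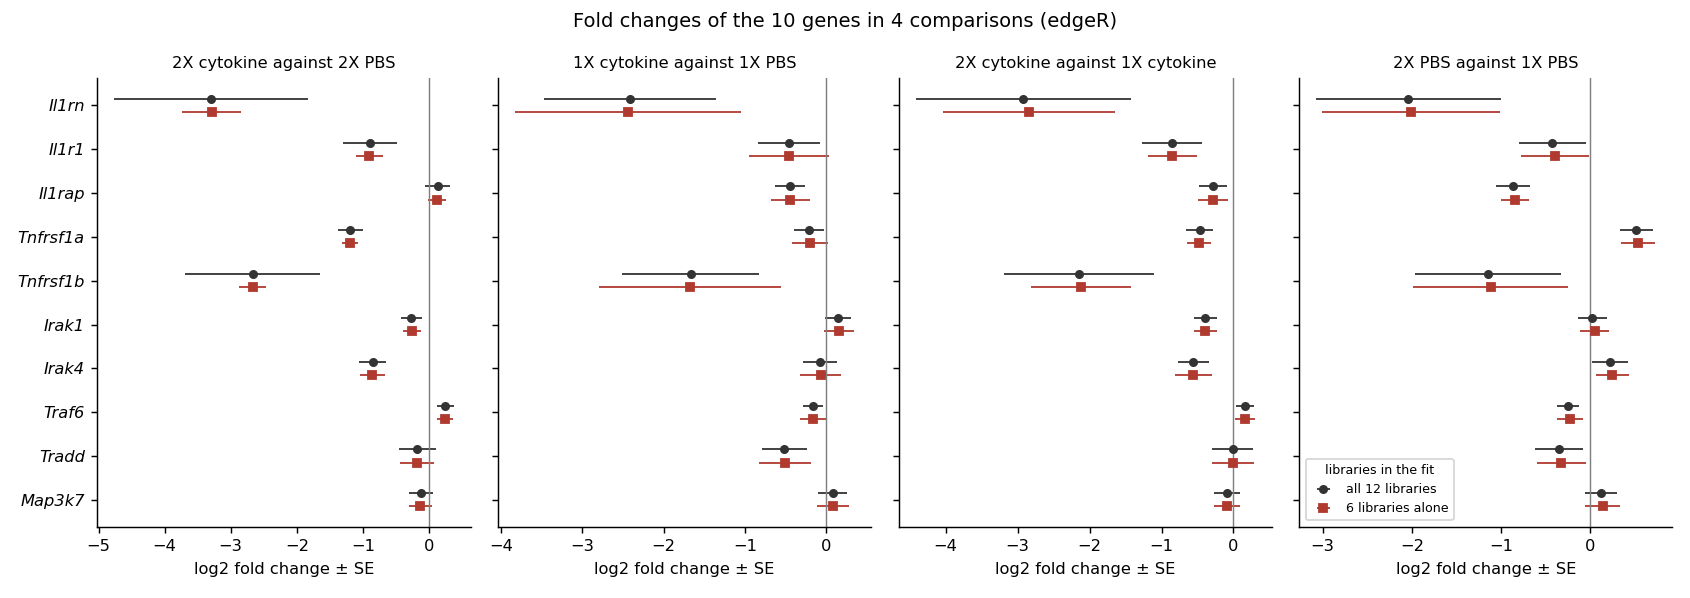
Log2 fold changes ± SE of the 10 genes in 4 comparisons, from edgeR with all 12 libraries (circles) and with the 6 libraries of the comparison alone (squares). For Il1rn and Tnfrsf1b in 2X cytokine against 2X PBS both fits give the same size, at SEs of 1.47 and 0.44 and of 1.02 and 0.20.

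After a single injection no member was called. For 1X cytokine against 1X PBS, edgeR called 0 of 10 genes and 0% of all genes with all 12 libraries, and likewise 0% with the 6 libraries of the comparison alone, where 282 genes and none of the 10 had an unadjusted p under 0.05. In the fit of 12, unadjusted p-values were under 0.05 for 2 of the 10, Il1rn and Il1rap, and for 783 of all genes, and DESeq2 called none of the 10. None of the 10 was apart in either direction, where 3.29% of all genes were lower and 2.89% higher without overlap. The largest log2 fold changes were -2.41 ± 1.1 for Il1rn and -1.67 ± 0.84 for Tnfrsf1b (edgeR, adjusted p = 0.866 for both). Without both replicates 1, edgeR called 5 of the 10, all lower, where 23.9% of all genes were called: Il1rn at -5.91 ± 0.42, Tnfrsf1b at -3.56 ± 0.24, Il1r1 at -1.28 ± 0.22, Il1rap at -0.70 ± 0.18 and Tnfrsf1a at -0.50 ± 0.15. These libraries were left out for how they look, which leaves 2 against 2. Without 1X PBS replicate 1 alone, 2 of the 10 were called, Il1rn and Tnfrsf1b, beside 1071 of all 14490 genes. Without 1X cytokine replicate 1 alone none of the 10 was called, beside 2 of all genes.

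Between the cytokine groups, 2X cytokine against 1X cytokine, no member was called by edgeR with all 12 libraries, where 0.0276% of all genes were. With the 6 libraries alone no member and 0% of all genes were called. In that fit 5 of the 10 had an unadjusted p under 0.05, as had 1069 of all genes. Without both replicates 1 no member was called, where 0.0207% of all genes were. In the fit of 12, 3 of the 10 had an unadjusted p under 0.05, Tnfrsf1a, Irak1 and Irak4, as had 1016 of all genes, and DESeq2 called none of the 10. Il1r1, Tnfrsf1a, Tnfrsf1b, Irak1 and Irak4 were lower without overlap in the 2X libraries, 5 of 10 where 6.76% of all genes were, and Traf6 was higher, where 5.71% were. The log2 fold change of Tnfrsf1b was -2.15 ± 1.05, and -0.78 ± 0.34 without both replicates 1. That of Il1r1 was -0.85 ± 0.41, and -0.35 ± 0.24 without them, that of Irak4 -0.56 ± 0.22 and -0.32 ± 0.22, and that of Tnfrsf1a -0.47 ± 0.19 and -0.33 ± 0.15. Irak1 was at -0.39 ± 0.16, and at -0.42 ± 0.15 without them. That of Il1rn was -2.92 ± 1.5, and 0.04 ± 0.79 without both replicates 1. With 1X cytokine replicate 1 alone left out, Tnfrsf1b was at -0.81.

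The schedule without cytokine, 2X PBS against 1X PBS, gave 0 of 10 and 0% of all genes called by edgeR with all 12 libraries, and 0% with the 6 libraries alone (2 of the 10 and 811 genes at an unadjusted p under 0.05). In the fit of 12, Il1rap and Tnfrsf1a had an unadjusted p under 0.05, as had 914 of all genes, and DESeq2 called none of the 10. Il1rap and Traf6 were lower without overlap, 2 of 10 where 6.05% of all genes were, and Tnfrsf1a was higher, where 5.4% were. Il1rap was lower by 1.82-fold (log2 fold change -0.86 ± 0.19; edgeR, adjusted p = 0.547) and Tnfrsf1a higher by 1.43-fold (0.52 ± 0.18; edgeR, adjusted p = 0.749). Without both replicates 1 Tnfrsf1a was at 0.35 ± 0.13 (edgeR, adjusted p = 0.0835). Without both replicates 1 edgeR called 4 of 10, all lower, against 19.1% of all genes: Il1rn at -2.62 ± 0.23, Tnfrsf1b at -1.68 ± 0.16, Il1rap at -0.95 ± 0.15 and Il1r1 at -0.75 ± 0.17. Without 1X PBS replicate 1 alone edgeR called 3 of these, Il1rn, Il1rap and Tnfrsf1b, beside 1061 of all 14490 genes.

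The response to cytokine after repeated injection was set against that after a single injection by the difference of both, which shares no library between its arms. With all 12 libraries edgeR called 0 of 10 and 0% of all genes. Tnfrsf1a (-0.99 ± 0.27), Irak4 (-0.78 ± 0.29) and Traf6 (0.41 ± 0.18) had an unadjusted p under 0.05, as had 754 of all genes, and DESeq2 called none of the 10. Without both replicates 1 edgeR called 2 of 10, against 9.64% of all genes: Il1rap, at 0.83 ± 0.24, and Tnfrsf1a, at -0.68 ± 0.20 (edgeR, adjusted p = 0.0419 and 0.0468). For Il1rn the difference was -0.88 ± 1.86 with all libraries and 2.66 ± 0.81 without both replicates 1, and for Tnfrsf1b -0.999 ± 1.33 and 0.91 ± 0.38, so their direction turned with those libraries. For Tnfrsf1a the sign was the same in both fits.

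Other genes of the pathway were taken as 9 lists of 124 genes, of which 109 passed the filter. With all 12 libraries in the fit, edgeR called none of them in any comparison; for 2X cytokine against 2X PBS 24 of the 109 reached an unadjusted p below 0.05, beside 1402 of 14490 genes. DESeq2 called 5 of the 109, beside 0.787% of all genes. With the 2X libraries alone edgeR called 24 lower and 3 higher in 2X cytokine, beside 7.22% of all genes. In the fits of the 6 libraries of the other 3 comparisons between groups it called 0. In these fits 4 to 16 of the 109 had an unadjusted p under 0.05, as had 282 to 1069 of all genes. Without both replicates 1 it called 43 lower and 10 higher in 1X cytokine against 1X PBS (23.9% of all genes), 35 lower and 7 higher in 2X PBS against 1X PBS (19.1%), 26 lower and 3 higher in 2X cytokine against 2X PBS (7.14%) and 0 in 2X cytokine against 1X cytokine (0.0207%). Of the NF-kB targets 14 of 16 were then called lower in 1X cytokine than in 1X PBS, and 10 of 16 in 2X PBS than in 1X PBS. In these edgeR fits, calls of pathway genes outside the comparison of the 2X groups thus came only without both replicates 1. Those libraries were left out for how they look, which leaves 2 libraries in each 1X group. These calls are therefore no independent result. For 2X cytokine against 2X PBS the median log2 fold change of the 109 was -0.21, beside -0.00 over all genes.

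Among the ligands 3 of 8 tested genes were called, all lower. Il1b, which encodes IL-1β itself, had 159 ± 30.9 CPM in the 2X PBS libraries against 6.84 ± 4.39 in those of 2X cytokine (n = 3, SD; log2 fold change -4.59 ± 0.30; edgeR on the 2X libraries alone, adjusted p = 3.48e-06). Tnf, which encodes TNF, had 35.1 ± 3.88 and 16.0 ± 5.59 CPM. Tnfsf14, the ligand LIGHT, had 3.24 ± 1.49 CPM in the 2X PBS libraries and was listed at 0 in all 3 libraries of 2X cytokine. Endogenous transcripts of the injected cytokines were thus lower in the cytokine libraries of the 2X groups than in the PBS libraries. Il1b had 9.51, 729.5 and 707 CPM in 1X PBS and 265, 8.83 and 3.85 in 1X cytokine, arranged like the neutrophil markers. The part of myeloid cells in these levels was not tested.

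Of the other IL-1 family receptors and decoys 3 of 4 tested were called lower. Il1r2, a decoy receptor that binds IL-1 without signalling, had 74.0 ± 17.9 CPM in the 2X PBS libraries against 1.65 ± 1.38 in those of 2X cytokine, and it is also 1 of the 10 neutrophil markers used here. Il18bp, a secreted decoy for IL-18, had 20.0 ± 2.23 and 7.25 ± 0.73 CPM, and Il18rap, a chain of the IL-18 receptor, 3.37 ± 1.5 and 0.24 ± 0.41. Of the other TNF receptor family genes 3 of 14 were called lower, Tnfrsf12a (31.0 ± 0.90 against 13.8 ± 2.40 CPM), Fas (27.6 ± 7.28 against 13.8 ± 1.85) and Ltbr (43.6 ± 2.74 against 30.1 ± 5.26). Of the 14, 3 had a higher mean in 2X cytokine, as had 1 of the 4.

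The partners of the complexes gave fewer calls. None of the 15 partners and brakes of the IL-1 receptor complex and none of the 10 TAK1 partners and IKK genes was called by edgeR in that fit (1 and 2 of them at an unadjusted p under 0.05). Tollip, an inhibitor of IRAK1, had 160 ± 14.5 CPM in the 2X PBS libraries against 199 ± 3.71 in those of 2X cytokine (edgeR on the 2X libraries alone, adjusted p = 0.0657). Among the TNF receptor complex partners, Traf1, an adaptor of TNFR2, rose (40.1 ± 7.72 against 65.7 ± 1.42 CPM) and Birc3, an inhibitor of apoptosis, fell (24.5 ± 3.23 against 12.9 ± 1.53). In the MAP kinase arm Mapkapk2, a kinase below p38, fell (28.7 ± 3.02 against 17.6 ± 3.22), as 1 of 15, a share near that of all genes.

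Of 7 genes for shedding and processing of these receptors 3 fell in the 2X libraries alone. Erap1, an aminopeptidase that also promotes shedding of TNFR1, had 70.7 ± 5.70 CPM in the 2X PBS libraries against 42.1 ± 2.71 in those of 2X cytokine (edgeR, adjusted p = 0.00167, and 0.0542 with all 12 libraries). Rhbdf2 and Rhbdf1, partners of the sheddase ADAM17, had 15.9 ± 4.53 against 4.80 ± 1.23 and 77.7 ± 12.5 against 54.2 ± 2.76 CPM. Of 16 NF-kB target genes 10 fell and 1, Nfkbiz, rose (175 ± 3.40 against 314 ± 73.4 CPM). Lcn2, an iron-binding protein of reactive astrocytes and neutrophils, had 453 ± 106 CPM in the 2X PBS libraries against 6.15 ± 7.68 in those of 2X cytokine, and Ccl2, a monocyte chemoattractant, had 32.3 ± 4.74 and 3.78 ± 0.49. Monocyte and neutrophil markers were also lower in the 2X cytokine libraries than in those of 2X PBS, as given above. Their part in these levels was not tested.

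Pairs of members differed in how closely their levels ran together across the 12 libraries. Il1rn and Il1r1 (r = 0.945), Il1r1 and Tnfrsf1b (0.934) and Il1rn and Tnfrsf1b (0.925) were the closest pairs, followed by Tnfrsf1a and Irak4 (0.871). These correlations share the libraries and the markers named above and are descriptions. The genes most like Il1rn were Slc16a3, a lactate transporter (0.991), Plek (0.990) and Cxcl2, a chemokine (0.989). For Il1r1 they were Rpl26 (0.983), Fth1 (0.983) and Rpl7 (0.981), and for Il1rap Mfsd6 (0.961), Cdc42ep2 (0.939) and Zswim4 (0.933). The closest genes to Traf6 and Map3k7, the members with the narrowest ranges, reached only 0.813 (Wdr45b) and 0.835 (Cwf19l1), and those to Irak1 and Tradd 0.915 (Nabp1) and 0.931 (Rela).

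**Figure D5:**
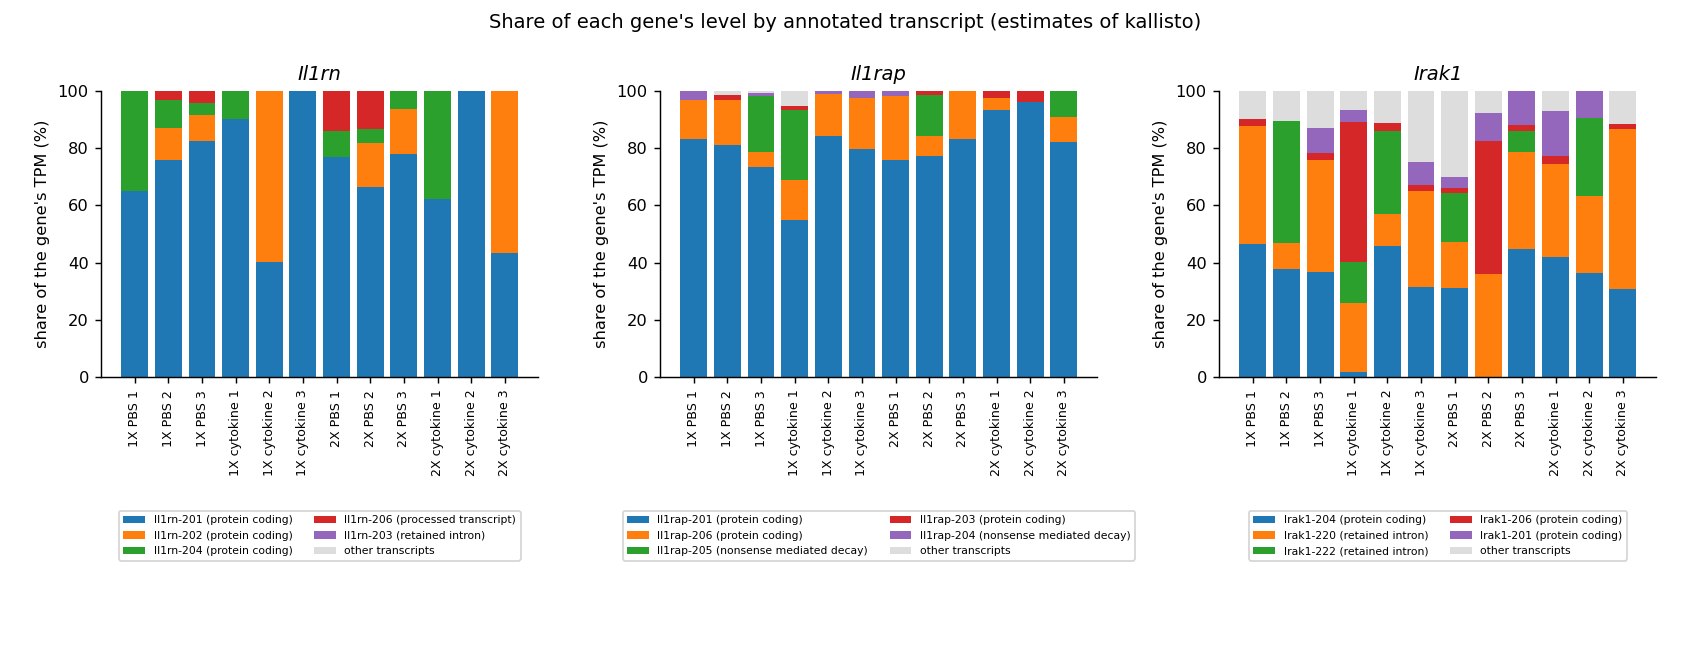
Share of each gene's TPM by annotated transcript for Il1rn, Il1rap and Irak1 in each library (stacked bars, percent, kallisto's estimates). Il1rap-201 leads in every library and Il1rn-201 in all but 1X cytokine replicate 2 and 2X cytokine replicate 3, while the retained-intron share of Irak1 (all such transcripts, some drawn among the others) is 46.8% to 59.1% in 1X PBS and 39.7% to 43.5% in 2X PBS.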

How the data were processed

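RNA was sequenced from sorted astrocytes in 12 libraries, 4 groups of 3; the series also holds 19 ATAC-seq samples, left out here. The deposited files give, per the file headers, estimated counts, TPM and effective lengths (base pairs) for 142604 transcripts, made by the authors with kallisto 0.46.1 per the submitters' processing notes. Use of strand in that step has no source here. Transcript values were summed per gene, and expected counts were rounded to whole numbers; 98.1% of gene identifiers matched GENCODE M21 (GRCm38), from which positions were taken. Promoter windows and their bases come from RefSeq (GRCm38.p6).

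Genes were filtered with filterByExpr, scaled by TMM and tested with edgeR 4.0.16 (quasi-likelihood, all 12 libraries in 1 fit, Benjamini-Hochberg over 14490 genes, threshold 0.05), in R 4.3.3; standard errors were taken as |log2 fold change| / sqrt(F). Python 3.11.15 with pandas 2.3.3 and matplotlib 3.10.9 did the rest. The script was tested on simulated data. Alternatives were DESeq2 1.42.0, RLE scaling, other filters, limma 3.58.1 on log2(TPM + 1) and log2(TPM + 0.1), voom with sample weights, the replicate block, the 6 libraries of a comparison alone, each library left out, and both replicates 1 of the 1X groups left out. Leaving out each 2X library in the fit of the 6 was chosen after seeing the data. The 10 genes and all lists were chosen with earlier results of these data known. Named genes were all members, up to 3 genes of each pathway list with the smallest p in the fit of 12, list genes called in any comparison, and the 3 protein-coding genes (mean CPM of at least 5) most like each member over 12 libraries. List genes called with the 2X libraries alone were named as well, and some of these fall outside that rule and were chosen after their values were seen. A gene of the pathway lists is counted in the totals and is not reported here by name.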

Additional observations from a re-analysis of the deposited data

How the results depend on the processing

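Counts of genes called, and of members called among the 10, depended on the tool and on the libraries in the fit. For 2X cytokine against 2X PBS, edgeR's 5 genes and 0 members became 114 and 1 with DESeq2, 460 and 3 without a low count filter, 454 and 2 with voom sample weights, 1046 and 5 with the 6 libraries alone, 1035 and 5 without both replicates 1 of the 1X groups, and 2 genes with the replicate block. For 1X cytokine against 1X PBS, 0 and 0 became 2 genes with DESeq2, 251 and 2 without filter, 6 and 5 genes with limma on log2(TPM + 1) and log2(TPM + 0.1), 1778 and 2 with voom, and 3456 and 5 without both replicates 1. For 2X cytokine against 1X cytokine, 4 and 0 became 8 genes with DESeq2, 193 and 2 without filter, 9 genes on log2(TPM + 0.1), 1 with voom, and 0 with the replicate block, under a filter at mean CPM 10 and with the 6 libraries alone. For 2X PBS against 1X PBS, 0 and 0 became 17 genes with DESeq2, 97 and 2 without filter, 1 gene on log2(TPM + 1), 2699 and 4 with voom, and 2763 and 4 without both replicates 1. For the difference of the responses, 0 and 0 became 13 genes with DESeq2, 70 without filter, 1 and 2 on the log2(TPM) scales, 199 with voom, and 1397 and 2 without both replicates 1. The cause of these changes was not tested.

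With 1 library left out of the 12, genes called ran from 0 to 141, 0 to 1071, 0 to 4, 0 to 1061 and 0 to 16 in the same order, and members from 0 to 1, 0 to 2, 0 to 0, 0 to 3 and 0 to 0. With 1 left out of the 6 libraries of the 2X groups, genes ran from 623 to 910 and members from 3 to 5.

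Directions turned for these members. In 2X cytokine against 2X PBS, Tradd was 0.26 and 0.28 on the log2(TPM) scales, and Map3k7 ran from -0.22 to 0.02 with 1 library left out. In 1X cytokine against 1X PBS, Irak4 was 0.03 on both TPM scales (range with 1 library left out -0.27 to 0.04), and Map3k7 -0.01 with voom and -0.07 without both replicates 1 (range -0.01 to 0.23). In 2X cytokine against 1X cytokine, Il1rn was 0.04 without both replicates 1 (range -3.76 to 0.05), Tradd 0.0039 without filter and 0.38 and 0.42 on the TPM scales (range -0.13 to 0.17), and Map3k7 0.05 without both (range -0.18 to 0.04). In 2X PBS against 1X PBS, Tnfrsf1b was 0.24 on log2(TPM + 0.1), Irak1 -0.09 with voom and -0.11 without both replicates 1 (range -0.11 to 0.12), and Traf6 0.03 and 0.04 on the TPM scales. In the difference of the responses, voom and leaving out both gave Il1rn 1.32 and 2.66 (range -1.72 to 2.07), Il1r1 0.08 and 0.39 (range -0.67 to 0.05) and Tnfrsf1b 0.42 and 0.91 (range -1.44 to 0.32). Over all alternatives for single members other than leaving out 1 library, 424 kept direction and call, 39 gained a call and 22 turned.

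On the TPM scales the median of all genes shifted to 0.122 and 0.136 for 1X, to 0.153 and 0.175 for 2X PBS against 1X PBS and to -0.12 and -0.136 for the difference, so TPM values are relative to that. Deviations of same-numbered libraries from their group means correlated from -0.619 to 0.162. The lowest value was that of the replicates 1 of the 1X groups, which stood apart from their labels. The replicate block called 0 members in each comparison, as did the fit without it. These values cannot decide whether replicate numbers pair the libraries. A level of Il1rn that rests on 2 to 10 counts limits its fold.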
